A study of Mus musculus with 18 samples.

Results

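The microglia fraction of 10-month-old mice was compared between *Atxn2*-CAG100-KIN (KIN) and wild-type (WT) animals, with 3 libraries of each genotype out of the 18 libraries of the study. The libraries were chosen by fraction and genotype alone, counts were summed by gene symbol, and the 10831 of 35960 entries with at least 5 reads in at least 2 of the 6 libraries were tested. KIN mice are homozygous for an expanded CAG repeat knocked into the endogenous *Atxn2* gene, so every cell carries the mutation, and WT mice were littermates of the same sex on the C57BL/6 background. From each dissociated brain, microglia were taken first with CD11b MicroBeads, then astrocytes with ACSA-2 beads. The remaining cells were depleted with beads against non-neuronal cells and CD31, and the flow-through gave the neuronal fraction. CD11b is also carried by other myeloid cells, so the beads do not part microglia from macrophages or monocytes. RNA was sequenced from the 3' end and from small RNA after depletion of ribosomal RNA, with unique molecular identifiers.

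Microglia are the resident macrophages of the brain. In their resting state they express a set of homeostatic genes such as *P2ry12*, *Tmem119* and *Cx3cr1*. Near degenerating neurons, plaques or damaged myelin they take on a state known as disease-associated microglia, with induction of the lipoprotein gene *Apoe*, the lectin gene *Clec7a* and the phagocyte receptor gene *Axl*, which in part depends on the receptor TREM2. Ataxin-2, the product of *Atxn2*, is an RNA-binding protein of stress granules and translation, and expansion of its polyglutamine tract causes spinocerebellar ataxia type 2.

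The libraries held between 2334633 and 3296398 counts, but the 10 most abundant genes took 77.9% to 84.6% of them, which left 433950 to 601040 counts for all other genes. By symbol these 10 included *Zfp101*, *Creb5*, *Ncbp3* and *Tgfb1*. Whether their reads come from the messages of these genes or from other RNA counted under the symbols was not tested. Markers of the labelled cell type were present in every library. *Aif1*, a calcium-binding protein of microglia and macrophages, was at 31.2, 40.2 and 35.6 CPM (counts relative to the scaled size of the library) in WT and at 40.8, 34.5 and 37.7 CPM in KIN, and *Tmem119*, a membrane protein that marks microglia, ranged from 70.9 to 141 CPM in WT and from 62.5 to 81.6 CPM in KIN. *Cx3cr1*, *Csf1r* and *P2ry12* were also detected in every library. Of the defining markers of other cell types, *Cd3e* and *Cd3g* of T cells, *Aqp4*, *Fgfr3* and *Gfap* of astrocytes, *Olig2* and *Mog* of oligodendrocytes, *Rgs5* and *Kcnj8* of pericytes, *Hbb-bs* and *Hba-a1* of erythrocytes and *Lyve1* of border macrophages did not reach the filter. The neutrophil gene *S100a8* was present at 14.7 to 52.2 CPM, and neuronal, astrocyte, oligodendrocyte and endothelial transcripts were present. The methods state that both sexes were used, the labels do not give the sex of a library, and the Y-linked genes *Ddx3y*, *Kdm5d*, *Uty* and *Eif2s3y* had reads in all 6 libraries, with 8 to 28 counts for *Kdm5d*. The libraries of female mice were thus not told apart from the counts, and sex was not a term of the test. WT replicate 2 stood apart from the other WT libraries, with a library scaling factor of 0.634 against 1.26 and 1.05. Where leaving it out changed the number of called genes of a list described below, that number is given. KIN replicate 1 also differed from the other KIN libraries, with a scaling factor of 0.887 against 1.17 and 1.16. Counts were also compared over genes, the 10 most abundant included, by the chi-square divided by the degrees of freedom. For KIN replicate 1 it was 16.4 and 19.4 against the other KIN libraries, which had 2.12 against each other. For WT replicate 2 it was 45.6 and 21.7 against the other WT libraries, which had 9.26 against each other.

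*Atxn2* itself (ENSMUSG00000042605, chromosome 5 of GRCm39, 121849400 to 121954556, plus strand) had 41, 14 and 25 counts in WT and 21, 17 and 18 counts in KIN. At 9.48 ± 2.50 CPM against 6.63 ± 1.26 CPM (SD, n = 3 each), the groups overlapped, and the difference in log2 fold change (log2FC, KIN minus WT) of −0.56 ± 0.29 (SE) did not pass the test (edgeR's quasi-likelihood test, adjusted *p* = 0.471). A level of *Atxn2* is no check of the genotype labels, since the repeat was inserted into a gene that stays transcribed.

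Across all genes, 80 were called higher in KIN (0.739% of the genes tested) and 85 lower (0.785%), a gene being called where edgeR's adjusted *p* did not exceed 0.05 and the log2FC was 1 or more in size. The median log2FC of all genes was −0.00. In 79 of the 80 higher genes and 71 of the 85 lower genes the KIN libraries did not overlap with the WT libraries, which was the case for 8.43% and 7.59% of all genes tested in the same directions. The genes higher in KIN were the more strongly expressed ones, with a median of 52.3 counts in the KIN libraries, and 27 of them had a mean of at least 100 counts there. The genes lower in KIN had a median of only 16 counts in the WT libraries, 11 had a mean under 10 counts, and 2 had a mean of at least 100. An absolute log2FC of at least 2 was reached by 19 of the higher and 59 of the lower genes. At an unadjusted *p* of at most 0.05, 674 genes were higher and 624 lower.

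**Figure D1:**
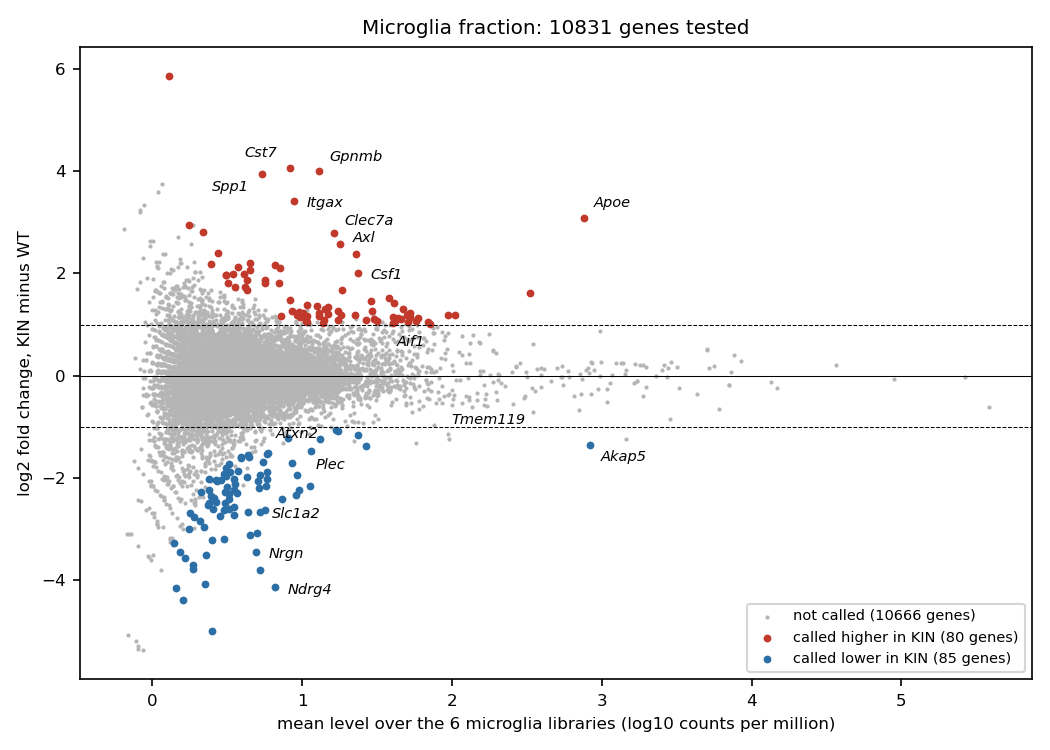
Each point is 1 of the 10831 genes tested, with its mean level over the 6 microglia libraries (x axis, log10 CPM) and its log2 fold change of KIN minus WT (y axis). Red points are the 80 genes called higher, with *Apoe* standing out at a high level, blue points are the 85 genes called lower, mostly at low levels, and dashed lines mark a log2 fold change of 1 and −1.

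Among the gene lists, that of the disease-associated state had the largest median rise in KIN microglia. The lists were written with earlier results of these data known, so the counts of their called genes are descriptions and not tests. Of 63 listed genes of this state, 55 passed the filter and 24 were called higher, none lower, with a median log2FC of 1.10 against −0.00 over all genes. The number called was 34 without WT replicate 2 and 12 to 16 without any other library. In 39 of the 55, every KIN library lay above every WT library. *Apoe* (ENSMUSG00000002985, chromosome 7, 19430034 to 19434947), which encodes the main lipid carrier of the brain, had 415, 519 and 277 counts in WT and 4346, 3839 and 3268 counts in KIN. All KIN libraries were far above all WT libraries, at 1357 ± 294 CPM against 159.4 ± 76.9 CPM (SD, n = 3 each), a log2FC of 3.09 ± 0.30 (SE, edgeR adjusted *p* = 5.21e-07). *Gpnmb* (ENSMUSG00000029816, chromosome 6, 49013426 to 49047863), a transmembrane glycoprotein of lipid-laden phagocytes, had 5, 2 and 5 counts in WT and 90, 63 and 53 in KIN, with a log2FC of 4.00 ± 0.38 (SE) and the same adjusted *p* of edgeR as *Apoe*.

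Among the surface receptors of this state, *Clec7a* (ENSMUSG00000079293, chromosome 6, 129438554 to 129449742), the beta-glucan receptor dectin-1, had 14, 9 and 10 counts in WT and 77, 74 and 91 in KIN, a log2FC of 2.78 ± 0.28 (SE, edgeR adjusted *p* = 7.02e-07). *Itgax* (ENSMUSG00000030789, chromosome 7, 127728668 to 127749829), which encodes the integrin CD11c, a subunit of a complement receptor, had 6, 2 and 4 counts in WT and 43, 50 and 45 in KIN, with a log2FC of 3.41 ± 0.34 (SE). *Axl* (ENSMUSG00000002602, chromosome 7, 25456535 to 25488329), a receptor tyrosine kinase for the uptake of apoptotic cells, had 17, 15 and 9 against 102, 81 and 76 counts, with a log2FC of 2.57 ± 0.29 (SE). For all 3 receptors the lowest KIN library was several-fold above the highest WT library. *Tlr2*, the receptor of bacterial lipoproteins, rose less, with a log2FC of 1.23 ± 0.27 (SE, edgeR adjusted *p* = 0.0163). *Cd52*, which encodes a small glycoprotein of leukocyte membranes, had a log2FC of 1.19.

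Several called genes of the list encode secreted proteins. *Spp1* (ENSMUSG00000029304, chromosome 5, 104582165 to 104589235), which encodes osteopontin, had 1, 0 and 4 counts in WT and 27, 27 and 33 in KIN, with a log2FC of 3.95 ± 0.49 (SE, edgeR adjusted *p* = 3.58e-05). *Csf1* (ENSMUSG00000014599, chromosome 3, 107648364 to 107667806), the growth factor of microglia and macrophages, had 40, 16 and 21 counts in WT and 104, 94 and 125 in KIN, with a log2FC of 2.02 ± 0.25 (SE). *Cst7*, which encodes the cysteine protease inhibitor cystatin F, had 1, 4 and 2 counts against 68, 23 and 38, with a log2FC of 4.07 ± 0.53 (SE). None of these 3 genes overlapped between the genotypes, although the KIN libraries differed among themselves for *Cst7*. *Igf1*, insulin-like growth factor 1, had only 3, 3 and 5 counts in WT and 13, 13 and 16 in KIN, with a log2FC of 1.81 ± 0.45 (SE, edgeR adjusted *p* = 0.0377). *Fam20c*, a kinase of secreted proteins, had a log2FC of 2.17, *Lgals3bp* of 2.37 and *Lgals3*, which encodes galectin-3, of 2.11. For *Lgals3bp*, WT replicate 2 with 39 counts was well above the other WT libraries with 9 and 7 counts.

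**Figure D2:**
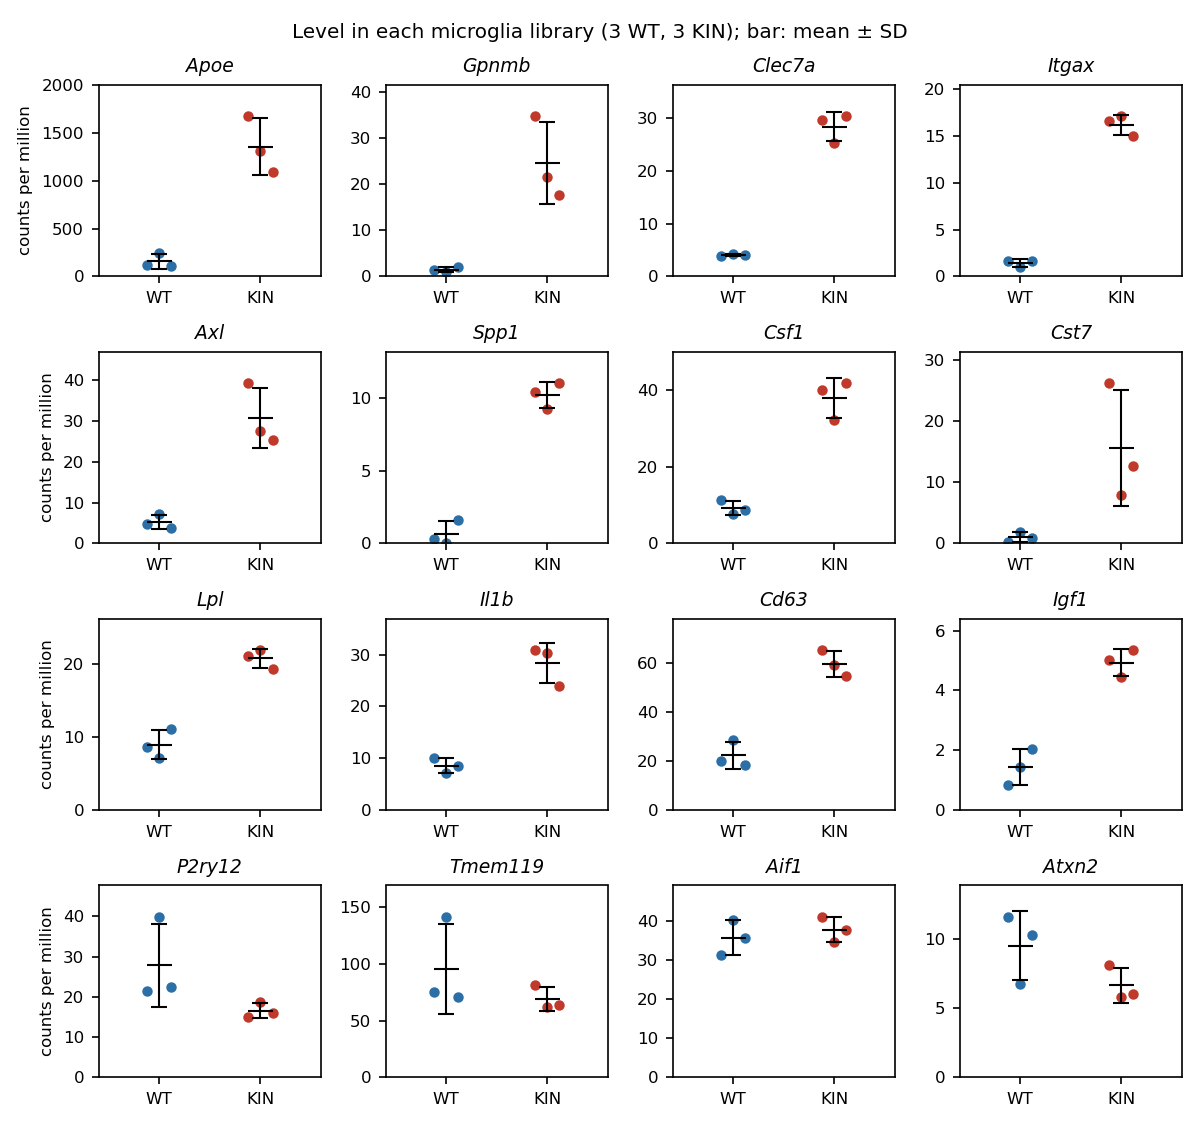
Level in CPM (y axis, from 0, with a scale for each gene) of 16 genes in the 3 WT (blue) and 3 KIN (red) microglia libraries, with the mean and SD in black. The first 12 panels are genes called higher in KIN, whose genotypes do not overlap, and the last 4 panels are *P2ry12*, *Tmem119*, *Aif1* and *Atxn2*, none of which was called.

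The called phagolysosomal members of this group rose by smaller factors. *Ctsb*, which encodes cathepsin B, had 197, 139 and 125 counts in WT and 329, 412 and 380 in KIN, a log2FC of 1.19 ± 0.22 (SE, edgeR adjusted *p* = 0.0056). *Cd63*, a tetraspanin of late endosomes, was at 22.4 ± 5.5 CPM against 59.6 ± 5.2 CPM (SD, n = 3 each), with a log2FC of 1.42. *Lyz2*, which encodes lysozyme, had a log2FC of 1.51, *Mpeg1*, a pore-forming protein of phagosomes, of 1.47, *Npc2*, a carrier of cholesterol out of lysosomes, of 1.10, and *Slc11a1*, a metal transporter of phagosomes, of 1.30. Over the whole list of 74 lysosomal and V-ATPase genes tested, however, only *Cd63*, *Ctsb*, *Npc2* and *Ppt1* were called, none was called lower, and the median log2FC was 0.35. Without WT replicate 2, 11 genes of the list were called and the median was 0.50, and without any other library 1 or 2 were called. *Ctsd*, the most abundant of them, lay at 686 ± 215 CPM in WT and 1257 ± 200 CPM in KIN (SD, n = 3 each) without overlap, but its log2FC of 0.88 did not pass the test (edgeR adjusted *p* = 0.070).

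Of 30 genes of lipid handling tested, 4 were called higher and none lower, with a median log2FC of 0.33. Only 1 was called without WT replicate 1 (median 0.19), KIN replicate 1 or KIN replicate 2, 2 without WT replicate 3 or KIN replicate 3, and 5 without WT replicate 2 (median 0.46). Besides *Apoe* and *Npc2* these were *Lpl* and *Apoc1*. *Lpl*, which encodes lipoprotein lipase, had 31, 15 and 27 counts in WT and 55, 64 and 58 in KIN, with a log2FC of 1.20 ± 0.25 (SE, edgeR adjusted *p* = 0.0134). *Apoc1*, an apolipoprotein gene next to *Apoe*, had no counts in any WT library and 8, 9 and 5 counts in KIN, at least 6.96-fold higher against a floor of 3 counts over the WT group. None of the 19 genes of cholesterol biosynthesis tested was called, and their median log2FC was −0.04, which ranged from −0.30 without WT replicate 1 to −0.03 without WT replicate 2 when 1 library was left out.

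The genes of the TREM2 receptor complex did not pass the test with all 6 libraries. *Trem2* had 256, 295 and 174 counts in WT and 394, 349 and 356 in KIN, with a log2FC of 0.46 ± 0.26 (SE, edgeR adjusted *p* = 0.519), and *Tyrobp*, its signalling adaptor, had 113, 215 and 73 counts against 433, 222 and 220, with a log2FC of 0.96 ± 0.36 (SE). In CPM both genes overlapped between the genotypes, in each case only through WT replicate 2. None of 31 genes of TREM2, TYROBP and Fc receptor signalling tested was called, and their median log2FC was 0.26. Without WT replicate 2, 2 of them were called higher and the median was 0.35, and without WT replicate 3 none was called and the median was 0.14. Of 16 complement genes only *Itgax* was called, with 3 called without WT replicate 2, while *C1qa*, the most abundant complement gene of the brain, lay at 273 ± 37.3 CPM against 418 ± 13.8 CPM (SD, n = 3 each) without overlap and without passing the test (log2FC 0.62 ± 0.22 (SE), edgeR adjusted *p* = 0.191).

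Homeostatic microglia genes were not called in either direction. All 32 of the list were tested, 25 had a log2FC below 0 and 7 above, and the median was −0.22. The lowest adjusted *p* was that of *P2ry13*, a purinergic receptor like *P2ry12*, with 65, 56 and 44 counts in WT and 25, 36 and 28 in KIN and a log2FC of −0.99 ± 0.26 (SE, edgeR adjusted *p* = 0.0462), just short of the required fold. *P2ry12* had a log2FC of −0.72 ± 0.26 (SE, edgeR adjusted *p* = 0.194) and *Tmem119* of −0.46 ± 0.26 (SE). Since WT replicate 2 had the highest level of this list of all libraries, the median moved to −0.10 without it. With DESeq2, with its size factors in edgeR, without the 10 most abundant genes, with all 18 libraries in one fit, with a mean of at least 10 counts, with the replicate block or without KIN replicate 1, 1 gene of the list was called lower, and without a filter on low counts 2 were. In bulk fractions like these, fewer cells of a type and less RNA per cell cannot be told apart.

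Of 26 cytokine and chemokine genes tested, 7 were called higher, none lower, with a median log2FC of 0.89. Without WT replicate 2, 11 were called, and without any other library 3 or 4. *Il1b*, the gene of interleukin-1 beta, had 36, 15 and 21 counts in WT and 80, 89 and 72 in KIN, a log2FC of 1.69 ± 0.25 (SE, edgeR adjusted *p* = 0.000394). *Cxcl16*, a chemokine and scavenger receptor for oxidised lipids, had 11, 6 and 8 counts against 28, 28 and 37, with a log2FC of 1.80 ± 0.31 (SE). *Ccl4*, a chemokine for monocytes and T cells, had a log2FC of 1.07 and *Mif*, macrophage migration inhibitory factor, of 1.11. Both *Tnf* (log2FC 0.94, edgeR adjusted *p* = 0.0487) and *Ccl3* (log2FC 0.91, edgeR adjusted *p* = 0.0547) had no overlap between genotypes. *Tnf* missed only the required fold, and *Ccl3* missed both the fold and the adjusted *p*. *Il16* (log2FC −1.01, edgeR adjusted *p* = 0.0904) and *Ccl2* (log2FC −0.92, edgeR adjusted *p* = 0.191), a chemokine for monocytes, had lower levels in KIN without overlap and did not pass the test. *Tgfb1*, among the 10 most abundant genes, had a log2FC of 0.08 and did not pass the test. Whether the reads under this symbol come from its message was not tested, so its level may not be that of the cytokine gene. Of 34 immediate-early genes, *Gadd45b* (log2FC 1.39) and *Egr2* (1.19) were called higher and the heat shock gene *Hspa1a* (−1.36), which has a near-identical copy, was called lower. None of the list was called without KIN replicate 1, KIN replicate 2 or WT replicate 3, 1 was called higher without KIN replicate 3 or WT replicate 1, and 2 were called in each direction without WT replicate 2.

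Genes induced by interferon are controlled by transcription factors that bind a sequence known as the interferon-stimulated response element (ISRE). Of 49 such genes tested, 5 were called higher, none lower, with a median log2FC of 0.80, and in 25 the KIN libraries lay above all WT libraries. These calls rested on the full set of libraries, since 8 were called without WT replicate 2, 1 without KIN replicate 1 and 0 without any of the other 4. *Rnf213*, a large ubiquitin ligase, had 22, 19 and 15 counts in WT and 37, 56 and 61 in KIN, with a log2FC of 1.36 ± 0.27 (SE, edgeR adjusted *p* = 0.00966). *Cxcl10*, a chemokine for T cells, had 5, 4 and 2 counts against 18, 15 and 14, with a log2FC of 1.99 ± 0.44 (SE, edgeR adjusted *p* = 0.0172). *Usp18*, which removes ISG15 from proteins and dampens the receptor, had 3, 2 and 2 counts against 9, 12 and 14, with a log2FC of 2.18 ± 0.51 (SE). *Ifi27l2a* (log2FC 1.68) and *Parp14* (1.16) were the remaining called genes, and none of the 5 exceeded 61 counts in any library. *Oas1g*, a sensor of double-stranded RNA that was not on the list and has close paralogs, had 4, 0 and 3 counts in WT and 14, 15 and 11 in KIN, with a log2FC of 2.39.

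Of 27 genes of antigen presentation tested, 3 were called higher, all of class I, none lower, and the median log2FC was 0.70. Without WT replicate 2, 6 were called, without KIN replicate 1 none, and without any other library 1. *B2m*, the light chain of class I molecules, had 182, 190 and 124 counts in WT and 423, 378 and 429 in KIN, a log2FC of 1.18 ± 0.25 (SE, edgeR adjusted *p* = 0.0131). The class I heavy chain genes *H2-D1* and *H2-Q7* had log2FCs of 1.31 and 1.26, and since class I genes are close paralogs, the share of each in these reads is uncertain. The class II genes *H2-Ab1* (log2FC 0.86) and *Cd74* (0.62) did not pass the test.

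The promoters of 3 of the genes called higher are shown because their letters hold an ISRE core, searched as GAAA, 2 bases of any kind and GAAA again, on both strands. They were taken by symbol from RefSeq promoter windows of GRCm38.p6, an older assembly than that of the counts, from 250 bases before to 50 bases after the start site, and are written 5' to 3' on the strand of the gene, with the matching letters in capitals.
*B2m*, chr2:122147437-122147736, plus strand: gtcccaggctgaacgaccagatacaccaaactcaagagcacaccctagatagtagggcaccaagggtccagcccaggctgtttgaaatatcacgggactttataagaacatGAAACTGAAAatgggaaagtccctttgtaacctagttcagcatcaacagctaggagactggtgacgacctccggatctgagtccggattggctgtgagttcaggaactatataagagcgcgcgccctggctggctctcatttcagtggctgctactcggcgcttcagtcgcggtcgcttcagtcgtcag
*Cxcl10*, chr5:92348840-92349139, minus strand: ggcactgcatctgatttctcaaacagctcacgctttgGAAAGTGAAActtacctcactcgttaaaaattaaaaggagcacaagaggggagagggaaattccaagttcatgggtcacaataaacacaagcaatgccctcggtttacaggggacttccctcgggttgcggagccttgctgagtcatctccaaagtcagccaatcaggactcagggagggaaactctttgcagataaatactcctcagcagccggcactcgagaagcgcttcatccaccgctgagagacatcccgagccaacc
*Oas1g*, chr5:120887564-120887863, minus strand: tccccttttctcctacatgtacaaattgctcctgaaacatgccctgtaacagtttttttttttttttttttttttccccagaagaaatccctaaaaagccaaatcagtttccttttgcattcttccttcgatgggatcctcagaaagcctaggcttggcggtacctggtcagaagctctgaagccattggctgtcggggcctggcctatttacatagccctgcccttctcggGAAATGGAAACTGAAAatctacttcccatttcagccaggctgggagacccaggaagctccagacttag
The match began 139 bases before the start site in *B2m*, 213 bases before it in *Cxcl10*, and 18 bases before it in *Oas1g*, where 2 overlapping matches form 1 stretch. Of all 32851 promoter windows, 3.44% held such a match. Windows were at hand for 59 of the 80 genes called higher, under the 80% needed to compare sets of genes, so no share over the called genes is given. The windows of *Spp1* and *Rps19*, also called higher, hold a match too and are not printed. Of the listed interferon-stimulated genes called higher, only *Cxcl10* had a match. For *Rnf213*, *Usp18*, *Ifi27l2a* and *Parp14* no match was found or no window was at hand. *B2m* was listed with antigen presentation, and *Oas1g* was not on the interferon list. A match of letters is a description and does not show a bound site.

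Genes of the cytosolic ribosome formed the second largest group among the higher genes. Of 87 tested, 14 were called higher and none lower, 79 had a log2FC above 0, and the median was 0.80. The number called rested on single libraries, with 46 called and a median of 1.06 without WT replicate 2, 2 called without KIN replicate 3, and 0 called without any of the other 4. *Rps18*, a protein of the small subunit, had 108, 96 and 52 counts in WT and 209, 217 and 183 in KIN, a log2FC of 1.15 ± 0.26 (SE, edgeR adjusted *p* = 0.0172), and *Rplp0*, of the stalk of the large subunit, had 81, 83 and 44 against 149, 167 and 147, a log2FC of 1.04. The called members lay in the narrow range up to the log2FC of 1.74 of *Rps12l1*. In a split by level chosen after the values were seen, the 18 genes with a mean above 300 CPM had log2FCs between −0.40 and 0.26 with a median of 0.05 and no call, while the other 69 had log2FCs between 0.02 and 1.74 with a median of 0.88 and held all 14 calls. Ribosomal genes have many processed pseudogenes. *Rps12l1*, which is on the list, is itself annotated as one, and the processed pseudogenes *Rps12-ps13* and *Rps12-ps15* and the gene *Rps27rt* were called higher too, so reads of single members may be shared. The relative level of the list, the mean over its genes of the level divided by the mean of the 6 libraries, was 0.651, 1.09 and 0.595 in WT and 1.38, 1.20 and 1.08 in KIN. WT replicate 2 thus overlapped with KIN, and the ratio of KIN to WT was 1.57 with it and 1.96 without it. The summed level of the list, in which abundant genes weigh most, also overlapped, at 25232 to 34734 CPM in WT and 28700 to 31673 CPM in KIN.

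*Tpt1*, a translationally controlled gene, was called higher too, with 129, 94 and 73 counts against 255, 238 and 191. Its log2FC was 1.13 ± 0.24 (SE, edgeR adjusted *p* = 0.0135). Of the 49 genes listed with the translation factors, *Tpt1* was the only one called higher, and the neuronal elongation factor *Eef1a2* the only one called lower. Neither direction had a call without KIN replicate 2, WT replicate 1 or WT replicate 3, none was called higher without KIN replicate 1, none lower without KIN replicate 3, and 2 were called higher without WT replicate 2 or as single transcripts. All 13 mitochondrially encoded messages tested had a log2FC above 0, with a median of 0.83, and *mt-Nd6*, a subunit of complex I, was called (log2FC 1.17, edgeR adjusted *p* = 0.0278). Without WT replicate 2, 5 of them were called, and without any other library none. *mt-Co1*, a subunit of complex IV, had a log2FC of 0.99 and an adjusted *p* of 0.0408 in edgeR. *Fth1*, the heavy chain of the iron store ferritin, had a log2FC of 1.06. Of 39 genes around ataxin-2 and stress granules, none was called. *Pabpc1*, the poly(A)-binding protein that binds ataxin-2, had the lowest adjusted *p*, with 79, 38 and 58 counts in WT and 110, 100 and 135 in KIN and a log2FC of 0.91 ± 0.23 (SE, edgeR adjusted *p* = 0.043). *Cyfip2*, a protein of the complex that regulates actin, had a log2FC of −2.14 (edgeR adjusted *p* = 0.0541) with overlap between the genotypes. Of the same list, 3 genes were called lower without WT replicate 2, 2 with all 18 libraries in one fit, 2 without a filter on low counts, and 1 without the 10 most abundant genes.

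**Figure D3:**
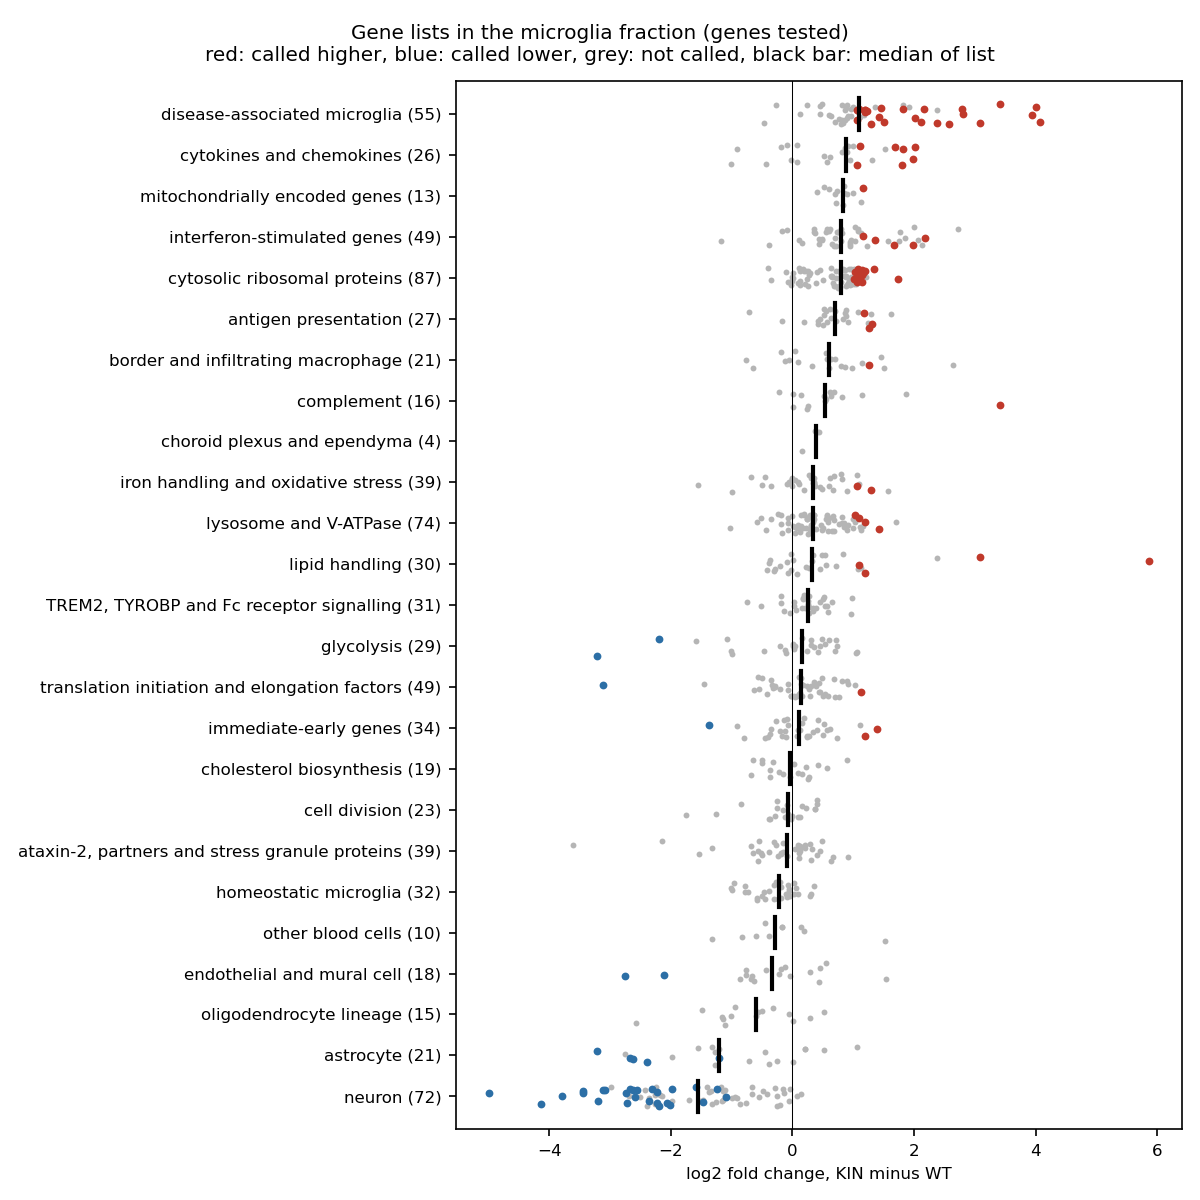
Log2 fold change of KIN minus WT (x axis) of every gene tested in 25 gene lists (y axis, number of genes tested in brackets), ordered by the median of the list. Disease-associated microglia genes lie highest with a median of 1.10 and 24 red points, and neuronal genes lowest with a median of −1.55 and 26 blue points, while homeostatic microglia genes lie near 0.

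Neuronal genes were the largest listed group among the genes that fell in the KIN microglia fraction. Of 72 neuronal genes tested, 26 were called lower and none higher, 70 had a log2FC below 0, and the median was −1.55. In the fit without WT replicate 2, 47 were called and the median was −1.81, and without any other library 7 to 10 were called, with a median of −0.80 without WT replicate 1. *Nrgn* (ENSMUSG00000053310, chromosome 9, 37452275 to 37464689), which encodes the postsynaptic calmodulin-binding protein neurogranin, had 42, 7 and 29 counts against 3, 2 and 2, with a log2FC of −3.45 ± 0.51 (SE, edgeR adjusted *p* = 0.000359). *Ndrg4*, a gene of brain and heart, had 60, 5 and 45 counts against 2, 4 and 0, with a log2FC of −4.14 ± 0.62 (SE). In both of these genes WT replicate 2 was several-fold below the other WT libraries and closer to the KIN libraries than to them.

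The called genes included presynaptic, postsynaptic and cytoskeletal ones. *Bsn*, the scaffold bassoon of the presynaptic active zone, had 53, 15 and 37 counts in WT and 7, 4 and 9 in KIN, a log2FC of −2.42 ± 0.36 (SE, edgeR adjusted *p* = 0.000394). *Cplx1*, the gene of the fusion clamp complexin-1, had 20, 2 and 20 counts in WT and a single read in KIN, a pooled ratio of WT to KIN of 44.3 (95% counting interval 7.52 to 1789). *Camk2b*, a calcium-dependent kinase of synapses, had 40, 7 and 30 counts against 5, 2 and 2, with a log2FC of −3.08. Of the synaptic vesicle machinery, *Snap25* (log2FC −2.23) and *Syt1* (−2.74) were called. Of the microtubule-associated proteins, *Map1a* (−2.16), *Map1b* (−2.23) and *Mapt* (−2.35) were. In *Map1b*, *Dnm1*, *Eef1a2*, *Sncb* and *Slc17a7* at least 1 KIN library reached WT replicate 2. *Tubb3*, a neuronal tubulin, had a log2FC of −2.99 but did not pass the test (edgeR adjusted *p* = 0.0639).

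Some astrocyte and vascular genes were called lower as well. Of 21 astrocyte genes tested, 5 were called lower, with a median log2FC of −1.21 over the list. The calls fell to 1 without KIN replicate 1 or KIN replicate 3, 2 without KIN replicate 2 or WT replicate 1, 3 without WT replicate 3 and 0 with DESeq2, and 6 were lower and 1 higher without WT replicate 2. The median moved to −0.62 without WT replicate 1, −0.48 without WT replicate 3 and −0.26 over the genes with a mean of at least 10 counts. *Mt1*, a metallothionein, went the other way, with higher levels in KIN without overlap (log2FC 1.07, edgeR adjusted *p* = 0.0909), and *Ttyh1* had a log2FC of 0.52 (edgeR adjusted *p* = 0.768). *Slc1a2* (ENSMUSG00000005089, chromosome 2, 102488574 to 102621129), the main glutamate transporter of astrocytes, had 36, 13 and 26 counts in WT and 5, 4 and 3 in KIN, a log2FC of −2.66 ± 0.40 (SE, edgeR adjusted *p* = 0.000394). *Cpe*, *Aldoc* and *Atp1b2* were among the others. None of 15 oligodendrocyte genes was called, with a median log2FC of −0.60 (2 lower without WT replicate 2, and a median of −0.33 with none called without WT replicate 3), and *Mbp*, myelin basic protein, had 34, 27 and 24 counts against 11, 12 and 19 without passing the test (log2FC −1.10, edgeR adjusted *p* = 0.055). Of 18 endothelial and mural genes, *Cldn5*, the tight junction protein of brain vessels, with 18, 16 and 12 counts against 2, 6 and 3 (log2FC −2.12, edgeR adjusted *p* = 0.0135), and *Notch3* (−2.75) were called lower, while the endothelial *Pecam1* had a log2FC of 0.44 (edgeR adjusted *p* = 0.482). Neither was called without KIN replicate 1 or KIN replicate 3, and *Notch3* was also not called without any other library but WT replicate 2, or with the replicate block.

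The relative level of the neuronal list was 1.93, 0.721 and 1.78 in WT and 0.481, 0.598 and 0.489 in KIN, and that of the astrocyte list was 1.49, 0.983 and 1.48 against 0.802, 0.677 and 0.564. In both lists WT replicate 2 lay between the other WT libraries and KIN. The ratio of KIN to WT of the neuronal list was 0.353 with all libraries and 0.281 without WT replicate 2. The genes of disease-associated microglia had relative levels of 0.523, 0.733 and 0.517 in WT against 1.53, 1.39 and 1.31 in KIN, a ratio of 2.38, and of 2.71 without WT replicate 2. The summed level of the neuronal list ranged from 549 to 798 CPM in WT and from 310.4 to 342 CPM in KIN, and its part in the rise of the other genes was not tested. The summed astrocyte level, most of it *Ttyh1*, overlapped, with 1824, 9137 and 1818 CPM in WT and 10777, 3778 and 3475 CPM in KIN. Markers of border and infiltrating macrophages had a summed level of 112 to 136 CPM in WT and 143 to 183 CPM in KIN. Of 21 tested, 16 had a log2FC above 0, with a median of 0.61, and only *Cd14*, which microglia also express, was called (log2FC 1.26). Of the fits leaving out 1 library, that call was kept only without WT replicate 2, where 2 genes of the list were called. Without KIN replicate 3, 1 gene other than *Cd14* was called, and without any other library none. The median fell to 0.33 without KIN replicate 2. *Mrc1*, of border macrophages, had 6, 4 and 7 counts against 12, 20 and 18 (log2FC 1.45, edgeR adjusted *p* = 0.0582). *Ccr2* of monocytes stayed between 1.91 and 4.10 CPM in all 6 libraries and *Lyve1* was under the filter. The part of these cells in the rise of disease-associated genes was not tested.

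**Figure D4:**
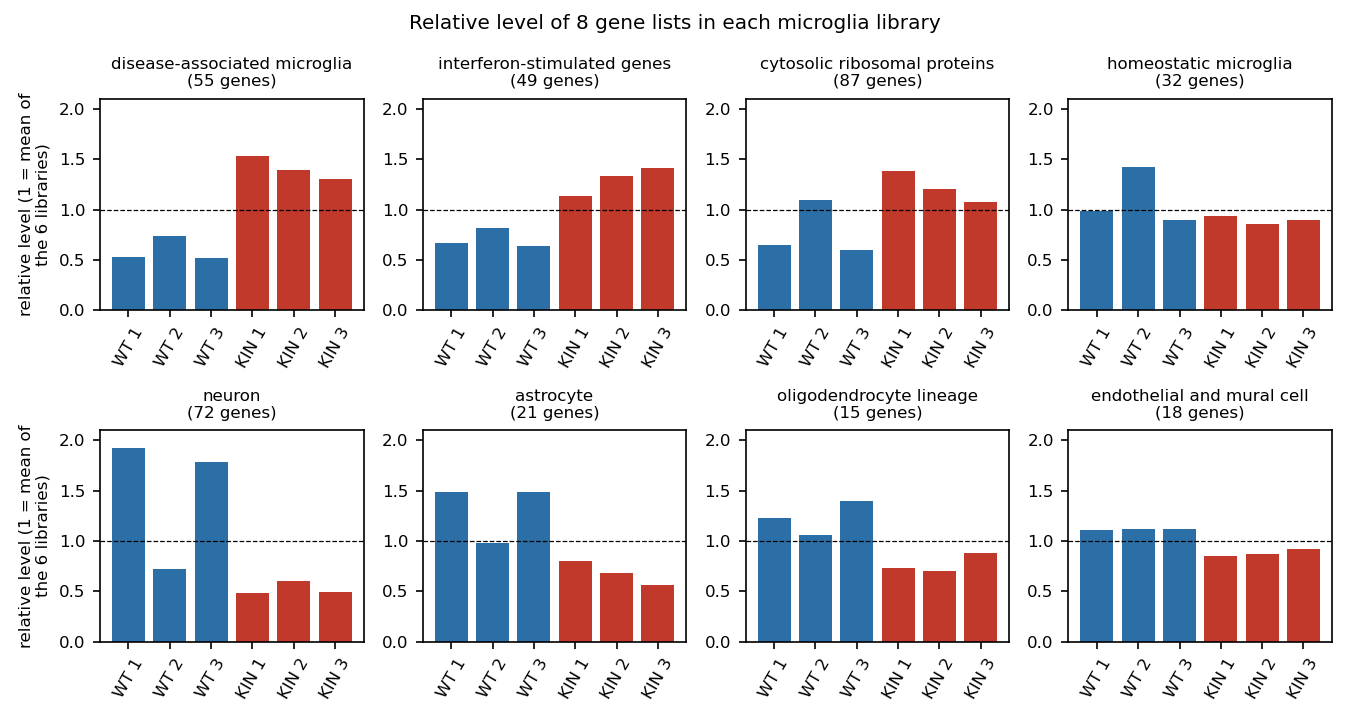
Relative level (y axis, mean over the genes of a list of the CPM divided by its mean of the 6 libraries) of 8 gene lists in the 3 WT (blue) and 3 KIN (red) microglia libraries. Genes of disease-associated microglia are above the mean in the 3 KIN libraries and below it in the 3 WT libraries, and the neuronal list is at 1.93 and 1.78 in WT replicates 1 and 3 but at 0.721 in WT replicate 2.

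Of the 85 lower genes, only *Akap5* and *Hspa1a* had a mean of at least 100 counts in WT. *Akap5* (ENSMUSG00000021057, chromosome 12, 76371613 to 76382157), which encodes a scaffold of protein kinase A at synapses, had 3469, 3176 and 2693 counts in WT and 1129, 1418 and 1492 in KIN, a log2FC of −1.34 ± 0.24 (SE, edgeR adjusted *p* = 0.0029), with no overlap. *Plec*, which links intermediate filaments, had 64, 23 and 36 counts against 6, 14 and 13, with a log2FC of −1.94 ± 0.31 (SE). *Elp6*, a subunit of the elongator complex that modifies transfer RNA, had 98, 84 and 76 counts against 39, 44 and 41 (log2FC −1.16, edgeR adjusted *p* = 0.012), and *Sox4*, a transcription factor of development, 68, 59 and 51 against 29, 28 and 35 (log2FC −1.06). In CPM, WT replicate 2 had the highest level of both genes. The call of *Sox4* was lost in each of the 6 fits that left out 1 library. Higher genes outside the lists included *Lag3* (log2FC 1.23) and *Pdcd1*, both immune checkpoint receptors. *Pdcd1* had 1 read in each WT library and 8, 5 and 14 in KIN, a pooled ratio of 8.54 (95% counting interval 2.63 to 44.0). *Cd72*, an inhibitory lectin (log2FC 2.07), *Vmp1*, an autophagy gene (1.19), and *Plaur*, the urokinase receptor (2.00), were called as well. *Car9*, a carbonic anhydrase, had the only overlap among the higher genes, with 304, 1525 and 2617 counts in KIN and 339 to 651 in WT.

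The same genes were then looked up in the astrocyte fraction, whose cells were taken from the same brains after the microglia. The test of the difference treats the libraries as independent, and the labels do not say whether a replicate number marks the same animal in both fractions. The difference between the fractions was tested as an interaction over 13277 genes in 12 libraries, of which 103 had a larger (0.776%) and 52 a smaller (0.392%) log2FC in microglia. With the replicate number as a block, 264 genes differed between the fractions. Of the 80 genes higher in microglia, 50 could be tested in astrocytes, 7 were called higher there and 1 lower, against 2.43% called higher among all genes of that fraction. Of the 85 lower genes, 84 could be tested, and 45 were called lower in astrocytes, against 6.42% of all genes. The median astrocyte log2FC was 0.62 for the higher and −1.08 for the lower genes. *Apoe* differed most clearly between the fractions, with an astrocyte log2FC of −0.04 ± 0.23 (SE) and a difference of 3.13 ± 0.38 (SE, edgeR adjusted *p* = 1.27e-07). *Axl* (difference 2.76), *Csf1* (1.98), *Fam20c* (2.68) and *Gpnmb* (4.14) also rose more in microglia. *Lpl* was higher in microglia and lower in astrocytes, with an astrocyte log2FC of −1.47 ± 0.31 (SE) and a difference of 2.65 ± 0.41 (SE, edgeR adjusted *p* = 4.8e-05). In contrast, *B2m* (astrocyte log2FC 1.58), *H2-D1* (1.18), *Rpl41* (1.14) and *Rnf213* (1.00) were called higher in both fractions. On a common scale of the 18 libraries, the WT level was highest in the astrocyte fraction for 70 of the 85 lower genes (82.4%, against 33.3% of all genes tested), and in the microglia fraction for 47 of the 80 higher genes (58.8%, against 44.7%).

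**Figure D5:**
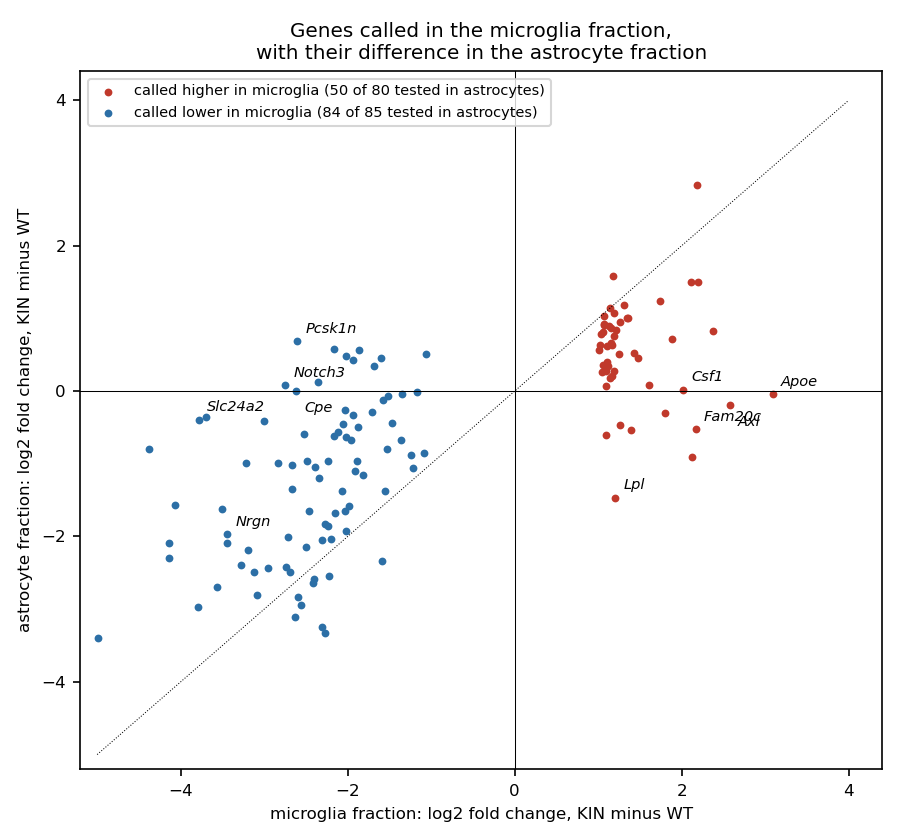
Log2 fold change of KIN minus WT in the microglia fraction (x axis) and in the astrocyte fraction (y axis) of the genes called in microglia, 50 of the 80 higher (red) and 84 of the 85 lower ones (blue). The dotted line marks equal values, *Apoe*, *Axl* and *Csf1* lie near 0 in astrocytes, and *Lpl* lies below 0.

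The call of single genes rested on few libraries. Of the 165 called genes, 21 were called in each of the 6 fits that left out 1 library, 13 higher and 8 lower. The 13 were *Apoe*, *Axl*, *Cd63*, *Clec7a*, *Csf1*, *Cst7*, *Cxcl16*, *Fam20c*, *Gpnmb*, *Il1b*, *Itgax*, *Lgals3bp* and *Spp1*, and the 8 included *Bsn*, *Camk2b*, *Map1a*, *Ndrg4*, *Nrgn*, *Plec* and *Slc1a2*. With DESeq2 in place of edgeR, 41 genes were called higher and only 7 lower. DESeq2 gave no adjusted *p* to 117 of the 165 genes for their low counts, and called none of the interferon-stimulated genes and 2 of the neuronal genes. Without WT replicate 2, 226 genes were called higher and 226 lower.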

How the data were processed

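RNA of CD11b-selected microglia of 3 WT and 3 KIN mice was analysed, and the 6 astrocyte libraries served for comparison. Per the labels and methods, the authors collapsed duplicates by unique molecular identifiers, trimmed with Cutadapt 4.6, mapped with Bowtie2 2.4.4 to RNA classes and then to mm39, and counted with HTSeq 2.0.2. Counting was without strand, so reads of overlapping and antisense genes were not told apart by strand. The deposited counts are whole numbers per transcript without normalization. Columns with the authors' own DESeq2 comparisons were not used, nor were 36 further columns of normalized per-sample values.

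Counts were summed by symbol, and the 137 transcripts without one were kept apart. Of 116873 transcripts, 99.4% were found in GENCODE vM39 (GRCm39, the same assembly as mm39), which gave positions. Genes reaching 5 reads in 2 or more of the 6 libraries were scaled with TMM and tested with edgeR 4.0.16 (quasi-likelihood test, prior count 0.125, Benjamini-Hochberg over all 10831 genes), in R 4.3.3, after a trial on simulated counts. Standard errors were obtained by dividing the log2FC by the root of the F value. Genes were called where the adjusted *p* did not exceed 0.05 and the log2FC was 1 or more in size. CPM use TMM-scaled library sizes, and 1 count equals 0.281 to 0.478 CPM. Depths were 2334633 to 3296398 counts per library, and intervals cover counting error only.

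Named genes were the 15 with the lowest adjusted *p* in each direction without overlap, the 8 with the largest log2FC at a mean of at least 10 counts, the called members of the lists (up to 12 a list), *Atxn2*, *Aif1* and *Tmem119*. Further called genes were named after their values were seen, and a few genes that the rule picks are not reported here. Samples, gene lists and rules were chosen with earlier results of these data known. Tried as alternatives were DESeq2 1.42.0, its size factors, removal of the 10 most abundant genes, other filters, all 18 libraries, transcripts, the replicate number as a block, and leaving out each library.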

Additional observations from a re-analysis of the deposited data

Results flagged for a closer look

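The KIN effect of 22 called genes differed between the microglia and astrocyte fractions in the test of the difference itself (edgeR's adjusted *p* up to 0.05, and a difference of 1 or more in size on the log2 scale). The log2FC in microglia minus that in astrocytes was positive for *Gpnmb* (4.14), *Apoe* (3.13), *Axl* (2.76), *Spp1* (7.67), *Csf1* (1.98), *Fam20c* (2.68), *Muc2* (3.02), *Lpl* (2.65) and *Lag3* (2.76). It was negative for *Plec* (−1.61), *Cpe* (−2.63), *Aatk* (−2.37), *Slc24a2* (−3.42), *Nnat* (−3.35), *Srcin1* (−2.04), *Pcsk1n* (−3.31), *Clip3* (−2.76), *Mapt* (−2.49), *Notch3* (−2.85), *Ndrg1* (−2.51), *Apbb1* (−2.44) and *Cavin1* (−2.06). For *Spp1*, *Gpnmb* and *Lag3* the astrocyte counts alone did not reach the filter of that fraction, so their difference rests on few astrocyte reads. *Spp1* had no reads in the KIN astrocytes, so its fitted difference depends on the prior count and is no bound. All 13 genes with a negative difference fell in microglia, and for *Pcsk1n* the astrocyte log2FC was 0.69 (edgeR adjusted *p* = 0.0452). Gene values of single libraries were not tested as outliers, since groups of 3 are below the size at which that test applies.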

How the results depend on the processing

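With DESeq2 in place of edgeR, 41 genes were higher and 7 lower, with 2 neuronal genes lower and 95 genes different between the fractions. Without a filter on low counts 171 were lower. With a mean of at least 10 counts 34 were lower, 15 of them neuronal, and with all 18 libraries in one fit 130 were lower. Tested as single transcripts, 52 were higher and 54 lower, 16 of them neuronal. When each library was left out in turn, the higher genes ranged from 16 (without KIN replicate 2) to 226 (without WT replicate 2) and the lower genes from 13 (without KIN replicate 3) to 226 (without WT replicate 2). Disease-associated genes called higher ranged from 12 to 34, neuronal genes called lower from 7 to 47, and genes different between the fractions from 73 to 197. The median log2FC stayed between 0.98 and 1.28 for disease-associated genes and between −2.06 and −0.80 for neuronal genes under all alternatives. The methods describe mutant and WT pairs of the same sex, but the labels do not say whether a replicate number marks a pair. The deviations of same-numbered WT and KIN libraries correlated at −0.08, −0.03 and 0.06, and those of differently numbered ones at −0.07 to 0.09. With groups of 3 these values cannot decide whether the numbers pair the samples. With the replicate block, 80 genes were higher and 74 lower, and 264 differed between the fractions. *Aif1* changed sign without WT replicate 1 (log2FC −0.018), with values up to 0.16 when other libraries were left out. Of the alternatives for single named genes, 878 kept direction and call and 272 kept the direction but lost the call. The depth outside the 10 most abundant genes limits what can be seen for genes of low count.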
